A study of Homo sapiens with 9 samples.

Results

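The genes described here are receptors and signalling partners that steer B cells through lymphoid tissue: the chemokine receptors CCR7, CXCR4, CXCR5 and CCR6, the lipid receptors S1PR1, S1PR2, GPR183 and P2RY8, the G protein subunit GNA13 and the regulator RGS1. They were taken by gene name and are 10 of the 60656 genes in the deposited count table. The table holds 11 rows with these names, because P2RY8 lies in the region shared by the X and Y chromosomes and has a second row, which held 0 counts in all 9 libraries. The first row of P2RY8 was used.

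RIVA, an established lymphoma cell line (ABC-DLBCL, the activated B-cell type of diffuse large B-cell lymphoma), was infected with a doxycycline-inducible pLVX-TetOne construct that carried no insert (vector), the truncating BCL10 mutant S136X, or the missense mutant R58Q, whose altered residue lies in the CARD domain. All 3 groups were treated with doxycycline for 24 h, at 200 ng/mL by the treatment protocol in the sample labels, whereas another label field gives the same figure per µL. RNA from 3 libraries a group was sequenced. The vector group is labelled as BCL10 wild type and has no added wild-type BCL10, so that each comparison with vector sets an induced mutant against the cells' own BCL10. All libraries come from 1 cell line. The study calls the libraries biologic replicates, but the labels do not say whether the 3 libraries of a group came from separate cultures, so p-values measure the spread between these libraries, which may be technical.

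B cells read their position from gradients of chemokines and lipids. CXCR5 draws them to CXCL13 in follicles, CCR7 to CCL19 and CCL21 in the T-cell zone, CXCR4 to CXCL12 in the germinal centre dark zone and the bone marrow, and CCR6 to CCL20. GPR183 (EBI2) follows oxysterols at the outer edge of the follicle, and S1PR1 follows sphingosine 1-phosphate out of the tissue into blood or lymph. S1PR2 and P2RY8 act in the other direction: through the G protein encoded by GNA13 they restrain migration and hold germinal centre B cells in place. RGS1 speeds the shut-off of the Gi proteins through which the chemokine receptors signal. BCL10 itself links antigen receptor signalling to NF-κB, and CCR7 is among the genes NF-κB is known to induce.

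Depth was 28047713 to 33122267 counts per library. BCL10 served to check the vector labels against those of the mutants. It had 885 to 1268 counts in the vector libraries, 9838 to 14293 with S136X and 10117 to 10596 with R58Q. These counts can include reads of the construct. The mutants overlapped, so BCL10 does not check the S136X and R58Q labels against each other. All 7 B-cell markers examined were above a level of 1 CPM (the count relative to the size of its library) on average in each group. The 5 monocyte and macrophage markers and the 4 natural killer cell markers were each below 1 CPM on average, and the 6 T-cell markers summed to 3.17 to 7.35 CPM. Of these, CD8A averaged 4.6 CPM with vector, 4.6 with S136X and 4.2 with R58Q, and CD4 averaged 1.17, 0.80 and 0.81. CD3D, CD3E, CD3G and CD2 were each below 1 CPM on average in every group. Among the 4 epithelial markers, EPCAM and KRT8 were above 1 CPM, with a list sum of 36.4 to 59.4 CPM and no separation of the groups. The sum of the 4 fibroblast markers rose with the mutants through COL1A1, not as a list. This sum was 6.14 to 9.25 CPM with vector, 12.4 to 18.3 with S136X and 12.7 to 18.8 with R58Q. PDGFRB averaged 0.71, 0.68 and 0.75 CPM in the same order. Only COL1A1 and COL1A2 of that list exceeded 1 CPM on average. COL1A1 went from 3.85 ± 1.13 CPM (SD, n = 3) with vector to 12.1 ± 3.62 with S136X and 13.2 ± 3.51 with R58Q, COL1A2 went from 3.18 to 2.16 and 1.35 CPM, and the defining marker COL3A1 had at most 2 counts in any library. The part of the COL1A1 rise in the results given here was not tested. The names of the R58Q columns carry a later date than those of the vector and S136X columns, so R58Q and that date cannot be told apart.

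A gene was called changed at an adjusted p under 0.05 and a difference of at least 1.5-fold, by edgeR's quasi-likelihood test on the counts with Benjamini-Hochberg adjustment over all genes tested. Levels are CPM with TMM scaling over the 9 libraries, and 9 of the 10 genes had enough counts to be tested. With S136X, CCR7 rose, CXCR4 and S1PR1 fell, and the other 6 were not called. With R58Q, CCR7 and GPR183 rose, CXCR4 and S1PR1 fell, and 5 were not called. CXCR5 was nearly 1.5-fold higher with either mutant and lay just outside the fold threshold, while S1PR2, GNA13 and RGS1 overlapped between vector and both mutants.

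The 3 of 9 genes called with S136X (1 higher, 2 lower) stand beside 601 of the 15530 genes tested, or 3.87% (2.05% higher and 1.82% lower). The 4 of 9 called with R58Q (2 higher, 2 lower) stand beside 1178 of 15435 genes, or 7.63% (4.09% higher and 3.54% lower). The libraries of the compared groups did not overlap for 5 of the 9 genes with S136X, against 31.3% of all genes tested, and for 5 of 9 with R58Q, against 40.3%. The median log2 fold change of the 9 genes was 0.05 with S136X and 0.10 with R58Q, beside -0.02 and -0.03 over all genes tested. Both comparisons use the same 3 vector libraries. Each of these results comes from bulk RNA, in which fewer cells expressing a gene and less RNA per cell cannot be told apart.

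**Figure D1:**
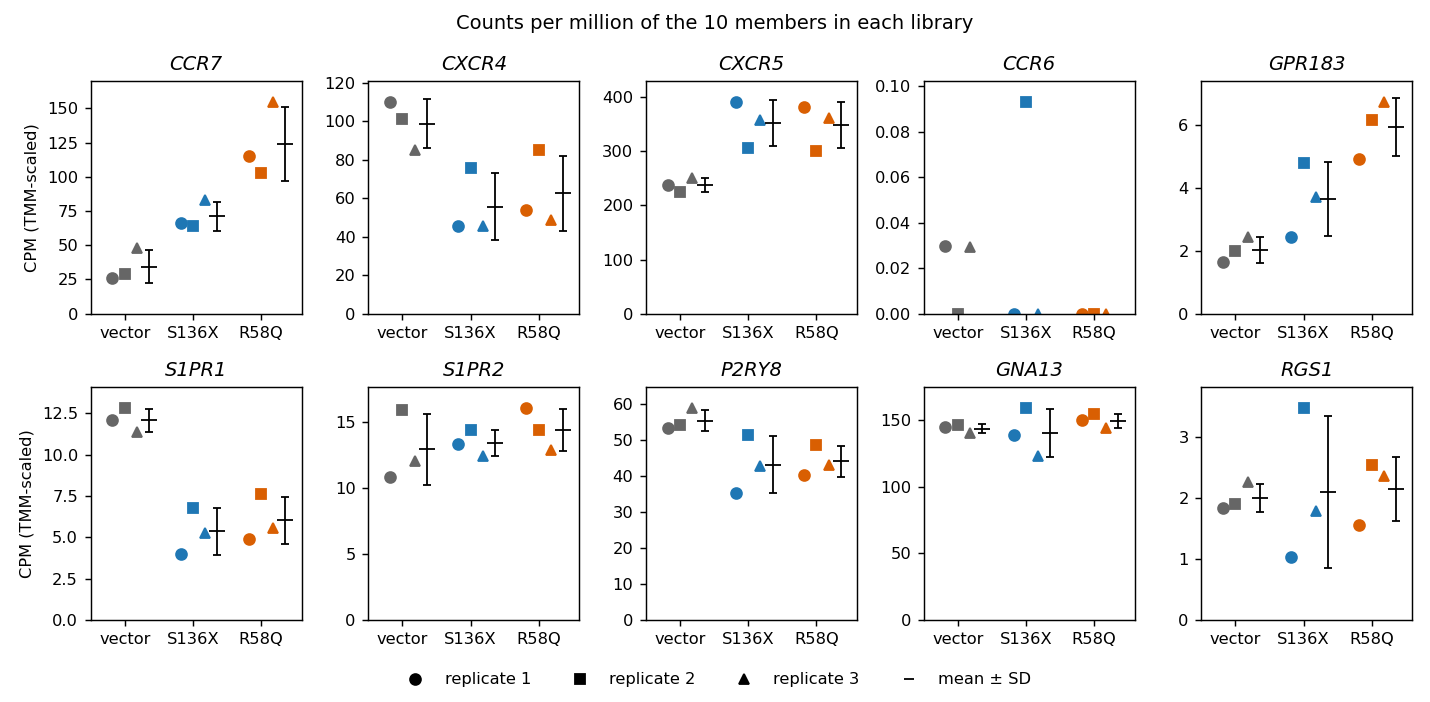
Level of each of the 10 genes in each library, in TMM-scaled CPM (vertical axes, each from 0), by construct (horizontal axes). Symbols mark the replicate numbers of the labels and black bars give the mean ± SD (n = 3; not drawn for CCR6). CCR7 was above its vector libraries in all 6 mutant libraries and S1PR1 below them in all 6, whereas S1PR2, GNA13 and RGS1 overlapped.

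CCR7 (ENSG00000126353.3; GRCh38 chromosome 17, 40553769 to 40565472, minus strand) had the widest shift of the chemokine receptors among the 10 genes. Its level in the vector libraries was 26.1, 28.95 and 48.2 CPM. With S136X it was 66.3, 63.7 and 83.4 CPM, and with R58Q 115, 103 and 154 CPM. The 3 groups did not overlap, with R58Q highest and vector lowest. CCR7 rose 2.07-fold with S136X (log2 fold change 1.05, SE 0.21, edgeR adjusted p = 0.0187) and 3.60-fold with R58Q (1.85, SE 0.24, edgeR adjusted p = 0.00195). The R58Q call was the same in each of 15 other fits. The S136X call was lost without vector replicate 2 (edgeR adjusted p = 0.0921) and without S136X replicate 3 (edgeR adjusted p = 0.0669), with log2 fold changes of 0.94 and 0.93.

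CXCR4 (ENSG00000121966.7; GRCh38 chromosome 2, 136114349 to 136118149, minus strand) moved the other way. Its vector libraries had 110, 101 and 84.9 CPM. With S136X the values were 45.7, 75.7 and 45.9 CPM, and with R58Q 53.7, 85.1 and 48.8 CPM. All S136X libraries were below the vector libraries, but R58Q replicate 2 was level with vector replicate 3. CXCR4 fell 1.77-fold with S136X (log2 fold change -0.82, SE 0.19, edgeR adjusted p = 0.0288) and 1.58-fold with R58Q (-0.66, SE 0.20, edgeR adjusted p = 0.0455). Both calls were lost when single libraries were left out, with the direction kept. With S136X it was lost without vector replicate 1, vector replicate 2 or S136X replicate 3 (edgeR adjusted p = 0.075, 0.113 and 0.0995), at log2 fold changes of -0.73, -0.80 and -0.69. With R58Q it was lost in 5 of 6 leave-one-out fits, all but the one without R58Q replicate 2, with edgeR adjusted p from 0.0619 (without vector replicate 3, log2 -0.76) to 0.137 (without vector replicate 2, log2 -0.64). One fit over all 9 libraries also lost the R58Q call (edgeR adjusted p = 0.0702).

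CXCR5 (ENSG00000160683.5; GRCh38 chromosome 11, 118883892 to 118897787, plus strand) was the most abundant of the 10 genes per length of exon in every group. It had 237, 224 and 251 CPM with vector, 391, 307 and 359 CPM with S136X, and 382, 301 and 362 CPM with R58Q. Every mutant library was above every vector library, and the mutants overlapped each other. The difference was 1.48-fold with S136X (log2 0.57, SE 0.09, edgeR adjusted p = 0.00764) and 1.47-fold with R58Q (log2 0.55, SE 0.09, edgeR adjusted p = 0.00586). These pass the adjusted p and miss the fold threshold, which was passed without vector replicate 3 (log2 0.62 and 0.59), without S136X replicate 2 (0.67) or without R58Q replicate 2 (0.65). Of the exon bases of CXCR5, 88.6% overlap exons of BCL9L on the opposite strand, and the sources used here do not say whether counting used strand, without which reads of the 2 genes cannot be told apart. BCL9L had 40.6 to 50.5 CPM with vector, 41.6 to 48.1 with S136X and 33.9 to 41.9 with R58Q (log2 fold changes -0.04 and -0.26, edgeR adjusted p = 0.811 and 0.118).

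CCR6 (ENSG00000112486.16; GRCh38 chromosome 6, 167111807 to 167139696, plus strand), the receptor of CCL20, was at or near 0 counts. It had 1, 0 and 1 counts with vector, 0, 3 and 0 with S136X and 0, 0 and 0 with R58Q, all at or under the 3 counts that a count of 0 allows, a limit that covers counting error only. It was not tested and no fold is given. Exons of Z94721.2 on the same strand cover 69.2% of its exon bases, and that gene had 0 to 7 counts per library. Of the 31-base words of CCR6, 74.7% also occur in transcripts of other genes, and how reads shared between genes were counted is not given in the sources used here.

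S1PR1 (ENSG00000170989.10; GRCh38 chromosome 1, 101236865 to 101243713, plus strand), the egress receptor, fell with both mutants. Its vector libraries had 12.1, 12.8 and 11.4 CPM. It had 3.995, 6.79 and 5.26 CPM with S136X and 4.88, 7.61 and 5.56 CPM with R58Q. Each mutant library was below each vector library. The fall was 2.25-fold with S136X (log2 fold change -1.17, SE 0.18, edgeR adjusted p = 0.0063) and 2.01-fold with R58Q (-1.01, SE 0.17, edgeR adjusted p = 0.00535). Both calls were the same in each of 15 other fits, over which the log2 fold change ran from -1.37 to -1.001 with S136X and from -1.21 to -0.87 with R58Q.

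GPR183 (ENSG00000169508.7; GRCh38 chromosome 13, 99294539 to 99307399, minus strand, inside the span of UBAC2 on the other strand without overlap of exons) rose with R58Q. It was one of the scarcer receptors, with 55, 65 and 83 counts in the vector libraries, 71, 155 and 106 with S136X and 146, 184 and 220 with R58Q. In CPM these were 1.63, 1.99 and 2.44 with vector, 2.42, 4.80 and 3.72 with S136X, and 4.92, 6.14 and 6.73 with R58Q. R58Q lay above the other groups, whereas S136X replicate 1 lay within the vector range. GPR183 rose 2.93-fold with R58Q (log2 fold change 1.55, SE 0.20, edgeR adjusted p = 0.00195), a call that was the same in each of 15 other fits. With S136X it was 1.81-fold higher without passing the test (log2 0.85, SE 0.27, edgeR adjusted p = 0.0828). It passed with the replicate number as a block (log2 0.83, SE 0.19, edgeR adjusted p = 0.0123), with DESeq2 (adjusted p = 0.0304), with no filter (edgeR adjusted p = 0.0128) and without S136X replicate 1 (edgeR adjusted p = 0.0201).

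S1PR2 (ENSG00000267534.4; GRCh38 chromosome 19, 10221433 to 10231331, minus strand), the confining counterpart of S1PR1, did not pass the test in either mutant. It had 10.8, 15.9 and 12.03 CPM with vector, 13.3, 14.4 and 12.4 with S136X, and 16.0, 14.4 and 12.8 with R58Q. The groups overlapped. The log2 difference from vector was 0.05 with S136X (95% interval -0.29 to 0.39, edgeR adjusted p = 0.863) and 0.15 with R58Q (-0.20 to 0.51, edgeR adjusted p = 0.516), where intervals here and elsewhere are not adjusted for the number of genes. Of its 31-base words, 12.3% also occur in transcripts of other genes.

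P2RY8 (ENSG00000182162.11; GRCh38 chromosome X, 1462581 to 1537185, minus strand) was lower in both mutants by less than 1.5-fold. It had 53.1, 54.1 and 58.7 CPM with vector, 35.3, 51.2 and 42.8 with S136X, and 40.3, 48.6 and 43.1 with R58Q. All mutant libraries were below the lowest vector library. The log2 difference was -0.36 with S136X (SE 0.12, edgeR adjusted p = 0.0996) and -0.33 with R58Q (SE 0.08, edgeR adjusted p = 0.0245), the latter past the adjusted p and short of the fold threshold.

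GNA13 (ENSG00000120063.10; GRCh38 chromosome 17, 65009289 to 65056740, minus strand), the G protein that S1PR2 and P2RY8 use, was measured most precisely. It had 145, 146 and 140 CPM with vector, 139, 159 and 123 with S136X, and 150, 155 and 145 with R58Q, and the groups overlapped. Its log2 difference from vector was -0.03 with S136X (95% interval -0.24 to 0.17, edgeR adjusted p = 0.84) and 0.06 with R58Q (-0.07 to 0.18, edgeR adjusted p = 0.501). The R58Q sign changed with upper-quartile scaling and with total counts only, and the S136X sign without S136X replicate 3 (0.06). Both intervals lie within the 1.5-fold bounds.

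RGS1 (ENSG00000090104.12; GRCh38 chromosome 1, 192575763 to 192580024, plus strand) was low and variable. It had 62, 62 and 77 counts with vector, 30, 112 and 51 with S136X, and 46, 76 and 77 with R58Q. In CPM the S136X libraries ran from 1.02 to 3.47 and enclosed the vector libraries, at 1.84 to 2.27. The log2 difference was 0.07 with S136X (95% interval -0.79 to 0.94, edgeR adjusted p = 0.924) and 0.10 with R58Q (-0.42 to 0.62, edgeR adjusted p = 0.779). The S136X interval reaches past 1.5-fold on both sides, and the R58Q interval on the higher side only. In those directions a change of that size is not excluded by these libraries.

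**Figure D2:**
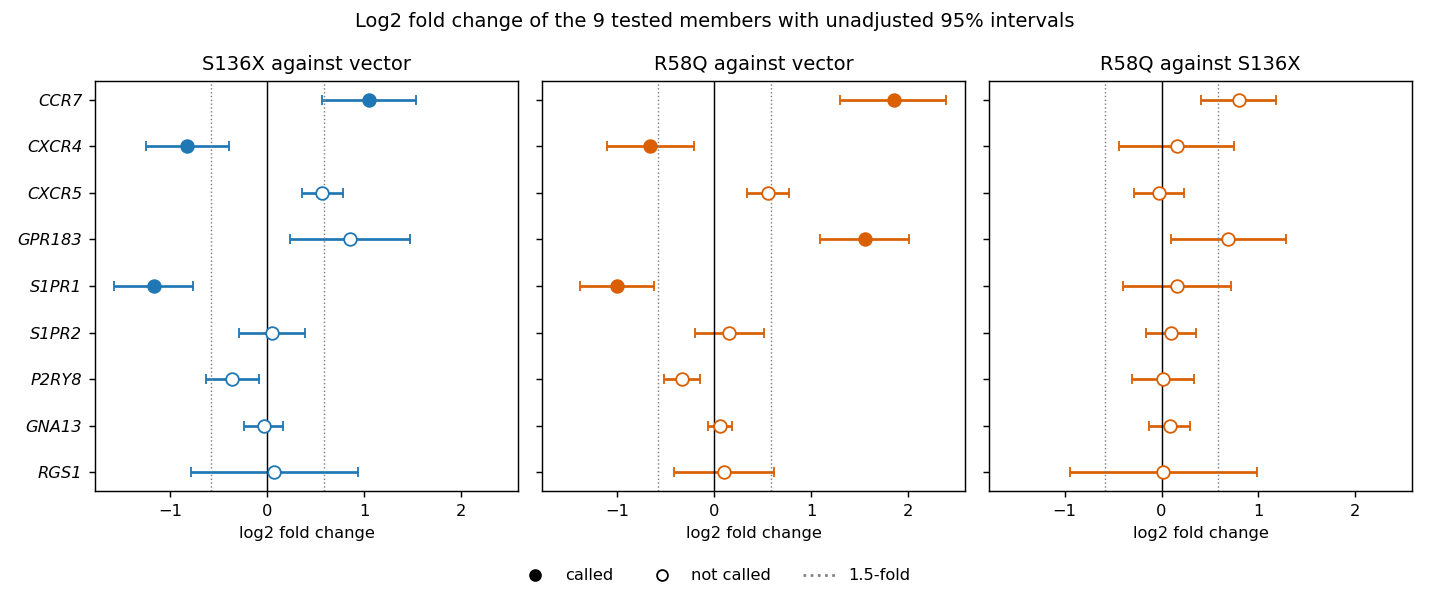
Log2 fold change (horizontal axes) of the 9 tested genes in the 3 comparisons, with unadjusted 95% intervals. Filled points were called, open points were not, and dotted lines mark 1.5-fold. CCR7 and S1PR1 lie beyond the dotted lines on opposite sides in both comparisons with vector, and no gene was called between the mutants.

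The mutants were compared with each other directly. None of the 9 genes was called between R58Q and S136X, beside 66 of 15195 genes tested, or 0.434%. At an unadjusted p under 0.05 there were 2, CCR7 and GPR183, and these were also the 2 whose libraries did not overlap, against 17.0% of all genes tested. How many of all genes had an unadjusted p under 0.05 was not counted, here or below. DESeq2 called 1 of the 9 (CCR7, adjusted p = 0.000102) and limma-voom called 0. CCR7 was 1.73-fold higher with R58Q than with S136X (log2 0.79, SE 0.17, edgeR adjusted p = 0.106), and GPR183 was 1.61-fold higher (log2 0.69, SE 0.25, edgeR adjusted p = 0.363). With the replicate number as a block, both passed, CCR7 at log2 0.78 (SE 0.05, edgeR adjusted p = 1.21e-09) and GPR183 at 0.70 (SE 0.13, edgeR adjusted p = 0.00112). For the other genes the difference was not detectable and its 95% interval was -0.44 to 0.75 for CXCR4, -0.28 to 0.23 for CXCR5, -0.39 to 0.71 for S1PR1, -0.16 to 0.36 for S1PR2, -0.30 to 0.34 for P2RY8, -0.13 to 0.29 for GNA13 and -0.95 to 0.99 for RGS1. BCL10 itself was 334.8 ± 24.0 CPM (SD, n = 3) with R58Q and 414 ± 71.7 with S136X, a difference that was not called (log2 -0.31, SE 0.12, edgeR adjusted p = 0.363). The date carried by the R58Q columns cannot be told apart from the mutant in this comparison either.

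The order of the genes was read from CPM per kb of exon, the one scale on which levels of different genes are set side by side here. With vector, CXCR5 was highest at 53.6 ± 3.01 CPM per kb (SD, n = 3), followed by CXCR4 at 44.4 ± 5.73, GNA13 at 28.2 ± 0.63, CCR7 at 13.7 ± 4.80 and P2RY8 at 12.4 ± 0.67. S1PR2 at 3.55 ± 0.73, S1PR1 at 2.31 ± 0.14, GPR183 at 1.19 ± 0.24 and RGS1 at 0.49 ± 0.06 formed the lower end. Neighbours in this order did not overlap between libraries, except for CCR7 and P2RY8. In the mutants the order changed in its middle and lower parts. With R58Q, CCR7 stood after CXCR5 (78.6 ± 9.48) at 49.5 ± 10.8 CPM per kb, above GNA13 (29.3 ± 1.02) and CXCR4 (28.1 ± 8.85), of which the last pair overlapped. With S136X, CCR7 at 28.4 ± 4.25 overlapped GNA13 (27.5 ± 3.53) and CXCR4 (25.1 ± 7.77). At the lower end, S1PR1 was above GPR183 in each vector library and below it in each mutant library: GPR183 was 2.15 ± 0.70 and 3.49 ± 0.54 CPM per kb with S136X and R58Q, and S1PR1 1.02 ± 0.27 and 1.15 ± 0.27.

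**Figure D3:**
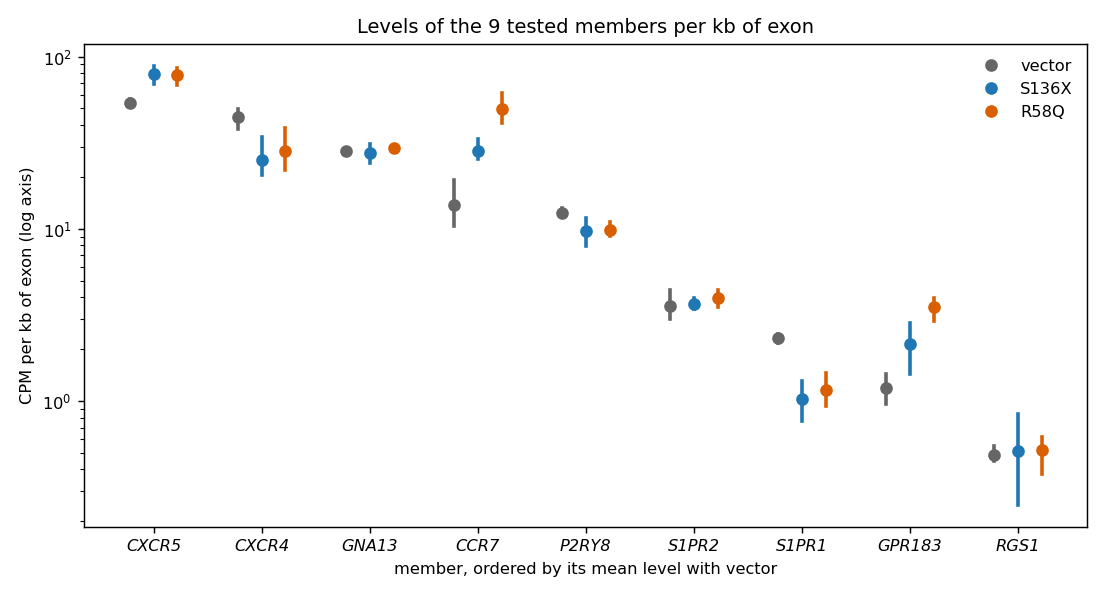
Levels of the 9 tested genes in CPM per kb of exon (vertical log axis), ordered by their mean with vector. Points are means of 3 libraries and lines run from the lowest to the highest library. CCR7 rises from the fourth place with vector to the second with R58Q, and S1PR1 and GPR183 exchange places.

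Upstream sequences are shown for the genes called in a comparison with vector, beside a search for the binding site of NF-κB. RefSeq (GRCh38.p14) windows of the 250 bases before an annotated start were found for 9 of the 10 genes, in 15 windows. CCR7 was the gene not matched. Both strands were searched for the κB consensus. A match was found in 2 of the 15 windows, 1 each of S1PR1 (starting at -213) and RGS1 (at -106), and in 3498 of 35116 windows of all genes, or 9.96%. The S1PR1 match is a palindrome within a run of G and C. The windows of CXCR4 (the most upstream of its 3 starts) and GPR183 held none. Capitals mark the match, S1PR1 is chr1:101236769-101237018 (plus strand), CXCR4 is chr2:136118150-136118399 (minus strand) and GPR183 is chr13:99307400-99307649 (minus strand), each written 5′ to 3′ along its gene.
S1PR1: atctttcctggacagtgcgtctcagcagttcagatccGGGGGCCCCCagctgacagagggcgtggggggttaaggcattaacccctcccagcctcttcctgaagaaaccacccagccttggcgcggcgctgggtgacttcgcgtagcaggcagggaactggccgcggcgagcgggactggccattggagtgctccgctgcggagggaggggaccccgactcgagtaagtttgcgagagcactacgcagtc
CXCR4: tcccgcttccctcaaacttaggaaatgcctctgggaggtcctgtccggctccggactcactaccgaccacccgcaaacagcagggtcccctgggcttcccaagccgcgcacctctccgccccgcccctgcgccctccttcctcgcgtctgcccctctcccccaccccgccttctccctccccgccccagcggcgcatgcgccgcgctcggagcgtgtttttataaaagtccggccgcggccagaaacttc
GPR183: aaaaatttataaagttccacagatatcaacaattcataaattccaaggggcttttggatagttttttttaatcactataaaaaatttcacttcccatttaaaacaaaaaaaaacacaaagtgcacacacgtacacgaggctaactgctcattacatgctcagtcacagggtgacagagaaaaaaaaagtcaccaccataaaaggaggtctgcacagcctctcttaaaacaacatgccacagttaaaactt
The share of G and C was 64.4% for S1PR1, 68% for CXCR4 and 34.4% for GPR183. A match says only that the letters are present in the window.

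The genes around these receptors were described with 6 lists holding 110 genes, of which 57 were tested with S136X and 59 with R58Q. CCR4 and GPR55 were tested with R58Q and not with S136X, passing the count filter through their R58Q libraries. CCR4 is among the genes called with R58Q. With S136X, 6 were called, 3 higher and 3 lower, or 10.5%, beside 3.87% of all genes tested. With R58Q, 9 were called, 7 higher and 2 lower, or 15.3%, beside 7.63% of all genes tested. Under the replicate block the counts were 7 and 11, beside 1014 and 1646 of all genes. The median log2 fold change over the lists was -0.06 and -0.08, close to the medians of all genes tested.

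Among the ligands and the enzymes that make or remove them, 1 of 7 tested genes was called in each mutant, and it was the same gene. SGPP2, a phosphatase that degrades sphingosine 1-phosphate, had 45.6, 41.7 and 48.1 CPM with vector, 89.5, 75.3 and 88.8 with S136X, and 86.4, 73.2 and 90.4 with R58Q. It rose by 0.90 on the log2 scale with S136X (SE 0.09, edgeR adjusted p = 0.000829) and by 0.88 with R58Q (SE 0.09, edgeR adjusted p = 0.000743). The list medians were 0.03 and -0.03. The ligand genes CCL20 and CXCL13 had at most 2 counts in any library.

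Of the other chemokine receptors, 0 of 4 were called with S136X (1 at an unadjusted p under 0.05, 0 by DESeq2 and limma-voom) and 2 of 5 with R58Q, both higher. CCR4, which binds CCL17 and CCL22, had 4, 5 and 2 counts with vector, 8, 4 and 1 with S136X, and 14, 29 and 32 with R58Q. Its log2 fold change with R58Q was 2.84 (SE 0.46, edgeR adjusted p = 0.00511), from counts close to the limit of detection. The second was ACKR3, a scavenging receptor of CXCL12, at 7.12 ± 1.08 CPM (SD, n = 3) with vector and 11.3 ± 2.17 with R58Q (log2 0.66, edgeR adjusted p = 0.0316), a call lost in 4 of 6 leave-one-out fits, with edgeR adjusted p of up to 0.0962 (without vector replicate 3). The list medians were -0.03 and 0.15.

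The other lipid and nucleotide receptors held the highest fold changes. With S136X 2 of 15 were called and with R58Q 4 of 16 (5 with the replicate block, which adds P2RY14 at log2 -0.85, edgeR adjusted p = 0.0437), and the list medians were -0.26 and -0.15. PTGER4, the prostaglandin E receptor EP4, had 9.76, 10.4 and 16.3 CPM with vector, 29.1, 50.4 and 57.9 with S136X, and 83.9, 74.5 and 104 with R58Q. The 3 groups did not overlap. It rose by 1.91 on the log2 scale with S136X (SE 0.27, edgeR adjusted p = 0.00441) and by 2.84 with R58Q (SE 0.20, edgeR adjusted p = 0.000111). GPR132, a receptor that responds to oxidized fatty acids, had 12, 9 and 9 counts with vector, 16, 21 and 18 with S136X, and 72, 62 and 93 with R58Q. It was called with R58Q at 3.02 (SE 0.25, edgeR adjusted p = 0.000223). With S136X, GPR132 was also above all vector libraries, 2.03-fold higher, without passing the adjusted p (log2 1.02, SE 0.30, edgeR adjusted p = 0.0671).

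PTAFR, the receptor of platelet-activating factor, fell in both mutants. It had 19.4, 14.9 and 14.0 CPM with vector, 11.5, 9.32 and 7.68 with S136X, and 11.99, 7.91 and 7.34 with R58Q, without overlap with vector. The log2 fold change was -0.76 with S136X (SE 0.17, edgeR adjusted p = 0.0274) and -0.83 with R58Q (SE 0.20, edgeR adjusted p = 0.0236). Each was lost in 4 of 6 leave-one-out fits, with edgeR adjusted p of up to 0.084 (without S136X replicate 3) and 0.0796 (without R58Q replicate 3). P2RY11, an ATP receptor, was called with R58Q at 0.82 (SE 0.22, edgeR adjusted p = 0.0315), lost in 4 of 6 such fits with edgeR adjusted p of up to 0.113 (without vector replicate 2). The readthrough gene PPAN-P2RY11 covers 50% of its exon bases on the same strand, so its counts are uncertain.

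The list of G proteins and the RhoA pathway includes genes that act after S1PR2 and P2RY8, beside G proteins of other classes. In it, 0 of 12 tested genes were called in either mutant by edgeR, DESeq2 or limma-voom. Of all genes tested, edgeR called 3.87% with S136X and 7.63% with R58Q. In each mutant 4 were at an unadjusted p under 0.05. The 4 with R58Q passed the adjusted p and missed the fold threshold. They were ARHGEF12 (log2 0.37, edgeR adjusted p = 0.00266), GNAI3 (0.27, edgeR adjusted p = 0.0167), GNA11 (0.36, edgeR adjusted p = 0.0406) and GNAZ (-0.30, edgeR adjusted p = 0.0338). With S136X, ARHGEF12 did so (0.32, edgeR adjusted p = 0.0118). Without a fold threshold, 1574 of all 15530 genes passed the adjusted p with S136X and 3243 of 15435 with R58Q. The list medians were 0.10 and 0.02, and single genes lay between -0.16 and 0.32 with S136X and between -0.30 and 0.37 with R58Q on the log2 scale. ARHGEF1, an exchange factor that joins the G protein encoded by GNA13 to RhoA, was at 229 ± 16.0 CPM (SD, n = 3) with vector. It was at 216 ± 11.1 with S136X and 216 ± 7.13 with R58Q. Among the RGS family other than RGS1, 2 of 10 were called with S136X and 1 of 10 with R58Q (2 with the replicate block, which adds RGS13 at log2 0.63, edgeR adjusted p = 0.0243, against 0.605 without it), and the list medians were -0.03 and -0.08. RGS16 had 11.3, 13.5 and 9.94 CPM with vector, 16.8, 27.9 and 20.8 with S136X, and 23.1, 33.8 and 23.4 with R58Q. It rose by 0.92 with S136X (SE 0.19, edgeR adjusted p = 0.0189) and by 1.21 with R58Q (SE 0.17, edgeR adjusted p = 0.00294), and the S136X call was lost without vector replicate 3 (edgeR adjusted p = 0.0549) or S136X replicate 3 (edgeR adjusted p = 0.0525). RGS14 fell with S136X, from 42.3 ± 2.71 to 27.0 ± 0.40 CPM (SD, n = 3; log2 -0.64, SE 0.07, edgeR adjusted p = 0.00159). Without vector replicate 1 its fall was -0.58 on the log2 scale, just under 1.5-fold, with an edgeR adjusted p of 0.00639. With R58Q, RGS14 was at 28.3 ± 1.57 CPM (SD, n = 3), below all vector libraries, with a log2 difference of -0.58 (SE 0.08, edgeR adjusted p = 0.00196) that lay just under 1.5-fold. The difference between the mutants was 0.05 (95% interval -0.11 to 0.22).

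Of the genes of receptor desensitization and transcription, 1 of 9 was called in each mutant, and the list medians were -0.18 and -0.29. That gene was KLF2, a transcription factor known to drive S1PR1 in lymphocytes. KLF2 had 16.0, 14.1 and 13.7 CPM with vector, 3.86, 7.96 and 5.01 with S136X, and 4.68, 6.34 and 4.49 with R58Q. All mutant libraries were below the vector libraries. Its fall was -1.38 on the log2 scale with S136X (SE 0.23, edgeR adjusted p = 0.0088) and -1.502 with R58Q (SE 0.15, edgeR adjusted p = 0.000637), and both calls held in all 6 leave-one-out fits. FOXO1, another factor known to act on S1PR1 and CCR7, was 101 ± 11.2 CPM (SD, n = 3) with vector, 80.6 ± 11.4 with S136X and 72.2 ± 6.53 with R58Q. With R58Q it passed the adjusted p and missed the fold threshold (log2 -0.48, edgeR adjusted p = 0.0117, no overlap with vector), and with S136X it passed neither (-0.32, edgeR adjusted p = 0.115). CD69, whose protein pulls S1PR1 from the cell surface, was 3.79 ± 0.81, 2.34 ± 1.65 and 2.98 ± 1.497 CPM in the same order. It was not called, except with S136X when the replicate number was a block (log2 -0.80, SE 0.25, edgeR adjusted p = 0.0405).

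**Figure D4:**
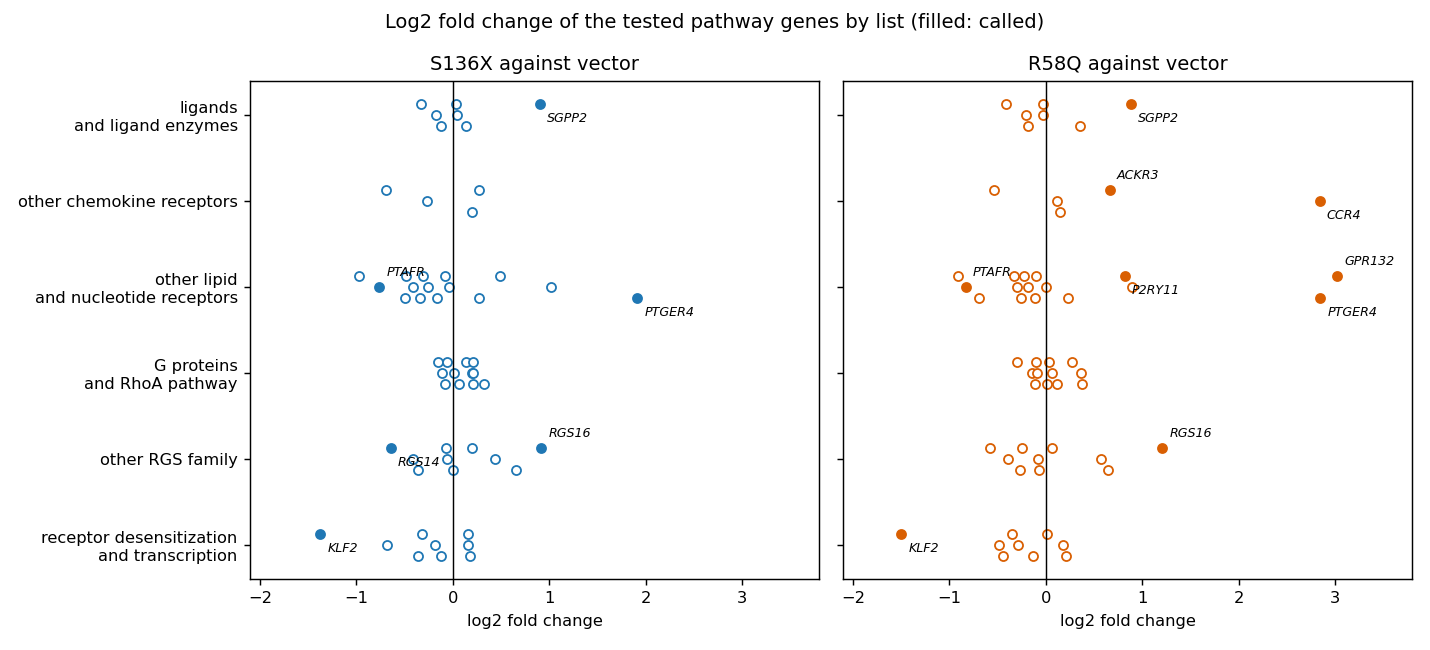
Log2 fold change (horizontal axes) of the tested genes of the 6 pathway lists (rows) with S136X (57 genes) and R58Q (59 genes) against vector. Each point is a gene, spread within its row for legibility, and filled points with names were called. Over both panels the called genes lie in 5 of the 6 lists, and the G protein and RhoA list stays between -0.30 and 0.37.

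The genes with the most similar course over the 9 libraries were found for each receptor called in both mutants, by the root mean square difference of log2 CPM after centring on the vector mean, among 15859 other genes. For CCR7 these were PIK3CD-AS1 (0.15), C1orf61 (0.18) and LRRC32 (0.21). The nearest genes to CXCR4 were ID3 (0.14), POU2AF1 (0.14) and AL034550.3 (0.16). S1PR1 was closest to LINC02397 (0.10). LINC02397 averaged -1.19 with S136X and -1.03 with R58Q on that scale, where S1PR1 averaged -1.20 and -1.02. PIK3CD-AS1 is named as an antisense gene, and reads from it and its partner cannot be told apart if counting did not use strand.

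**Figure D5:**
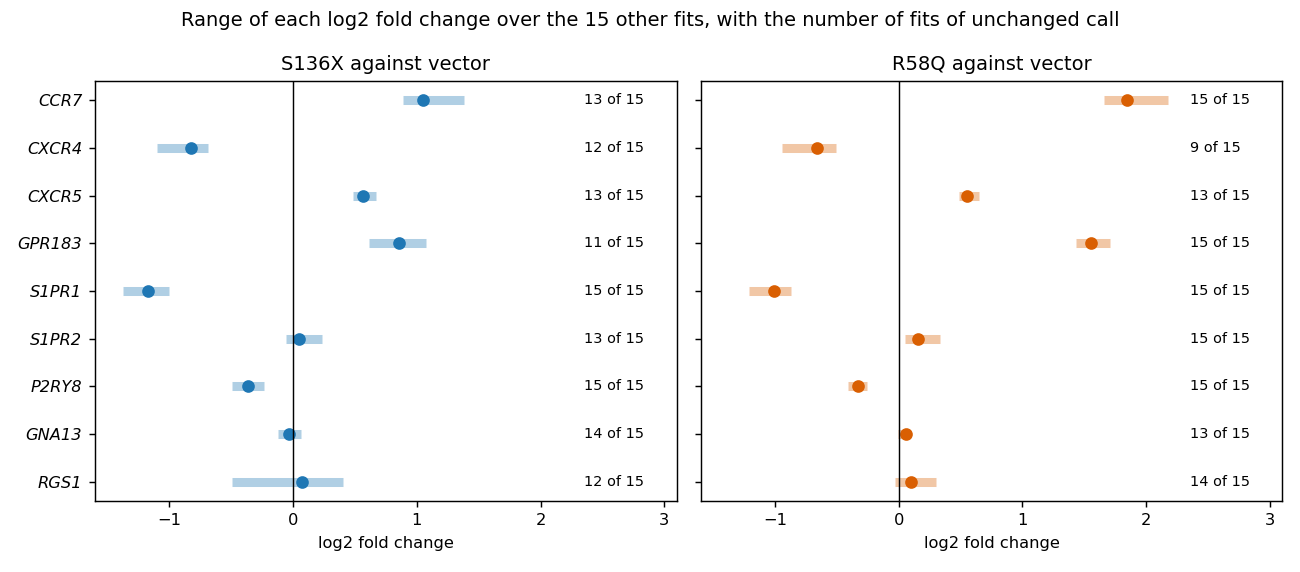
Log2 fold change of the 9 tested genes against vector (points) with its range over 15 other fits (bars), which change the test, the scaling, the filter, the libraries or the genes included. The number at the right counts the fits in which both the call and the direction were unchanged. CXCR4 with R58Q kept its call in 9 of 15 fits, and S1PR1 in 15 of 15 with either mutant.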

How the data were processed

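The authors deposited read counts per gene for 9 libraries and, beside them, normalized counts, which were not used here. Poly(A) libraries (NuGEN Universal Plus mRNA-Seq) were sequenced on an Illumina instrument. Per the submitters' processing notes, cutadapt, STAR and Picard and the build hg38 were used. The counting program, its strand setting and the annotation are not given in the sources used here. Of the 60656 identifiers, 58438 (96.3%) are in GENCODE release 29, whose exons gave the lengths, and 0 numeric columns lacked a sample.

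Groups and replicate numbers were taken from the sample labels. The members and gene lists were chosen with earlier results of these data known. The main test was that of edgeR 4.0.16 in R 4.3.3 (filterByExpr with a minimum count of 10 and total of 15, TMM, quasi-likelihood F test, Benjamini-Hochberg adjustment) on the 6 libraries of each comparison. Each SE was derived from the fold change and its F statistic. All members were named, and of the pathway genes those called, at most 6 a direction, and the 3 genes nearest in course to each member called in both mutants. ACKR3, ranked below these with R58Q, and ARHGEF1, ARHGEF12, GNAI3, GNA11, GNAZ, RGS13, P2RY14, GPR55, FOXO1, CD69, CCL20 and CXCL13, which were not called, were named after their values were seen. Some genes that the naming rule selects are left out of the text. No 2 libraries of a group agreed within sampling noise (chi-square over degrees of freedom, 7.99 to 25.7). The labels do not state that libraries of the same replicate number are paired. The main test did not pair them, and pairing enters only where the replicate number is a block. The deviations of all 9 same-numbered pairs from their group means correlated at 0.143 to 0.626 (median 0.425), against a median of -0.251 for other pairs. Deviations cancel within a group, so positive same-numbered correlations push those of other pairs to negative values. The median of other pairs is therefore not separate evidence of pairing. Alternatives were DESeq2 1.42.0, limma-voom (limma 3.58.1), upper-quartile scaling, total counts only, 2 other filters, all 9 libraries in one fit, protein-coding genes only, the block, other thresholds and each library left out. The procedures were tested on simulated data.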

Additional observations from a re-analysis of the deposited data

Results flagged for a closer look

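GPR132 differed when R58Q was set directly against S136X, with a log2 difference of 1.989 (SE 0.217, edgeR adjusted p = 0.0138) and all 3 R58Q libraries above all 3 S136X libraries. The call was lost in 4 of 6 leave-one-out fits, with edgeR adjusted p of up to 0.126 (without S136X replicate 3), and R58Q and the date of its columns cannot be told apart. GPR132 was the 1 pathway gene called between the mutants, beside 66 of the 15195 genes tested (0.434%). With the replicate number as a block 4 were called, beside 446 of all genes, the others being CCR4 (log2 2.44, edgeR adjusted p = 0.00143), PTGER4 (0.95, edgeR adjusted p = 2.4e-06) and GPR55 (1.46, edgeR adjusted p = 0.0135), all higher with R58Q. CCR4 and GPR55 passed the count filter there only through their R58Q libraries.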

How the results depend on the processing

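Of 405 refitted fold changes of the 9 genes, 362 kept direction and call, 11 lost the call, 12 gained it and 20 changed sign, all of them for genes and comparisons without a call. A stricter threshold passes fewer genes by construction, and elsewhere the cause was not tested. Under an adjusted p under 0.01, 1 of the 9 genes was called with S136X, beside 262 of all 15530 genes tested. Leaving out a library gave 1 to 4 (1 without vector replicate 2 or S136X replicate 3), beside 279 to 705 of all genes. Between the mutants, members called numbered 1 with DESeq2, 1 with no filter and 2 with the replicate block, beside 146, 165 and 446 of all genes. With no fold threshold, 18 of the 59 pathway genes tested were called with R58Q, beside 3243 of all 15435 genes tested. Between the mutants, 2 pathway genes were called with DESeq2, 3 with no filter, 4 with the replicate block, 0 at an adjusted p under 0.01, and 0 to 1 when a library was left out (0 without S136X replicate 1, 2 or 3, or R58Q replicate 3). Over all genes, 15 were called between the mutants at an adjusted p under 0.01, and 5 to 63 when a library was left out.

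The signs that changed were those of S1PR2 with S136X (total counts -0.0034, left-out libraries -0.053 to 0.23), GNA13 with S136X (-0.12 to 0.063) and with R58Q (upper quartile -0.0074, total counts -0.0011), and RGS1 with S136X (limma-voom -0.078, replicate block -0.020, left-out libraries -0.49 to 0.403) and R58Q (-0.0301 to 0.301). Between the mutants, left-out libraries ranged over -0.13 to 0.44 for CXCR4, -0.11 to 0.071 for CXCR5, -0.044 to 0.37 for S1PR1, -0.11 to 0.16 for P2RY8 and -0.305 to 0.603 for RGS1. Upper-quartile scaling and total counts moved the median of all genes by less than 0.1. Over all genes, calls with S136X numbered 934 with no filter, 1014 with the replicate block and 279 without vector replicate 2. Those with R58Q numbered 719 without vector replicate 2, and those between the mutants 446 with the replicate block. No other call of a member changed with the block. RGS1 and GPR183 had at most 220 counts a library.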

Other observations

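Ratios of counts within a library, chosen after the values were seen and without a test, are free of the scaling between libraries. They use the same counts as the comparisons above, in which CCR7 was called higher and CXCR4 and S1PR1 lower, so they are not separate evidence. The ratio of CCR7 to CXCR4 was 0.237, 0.286 and 0.568 in the vector libraries, 1.45, 0.842 and 1.82 with S136X, and 2.15, 1.21 and 3.16 with R58Q, so that all 6 mutant libraries were above all 3 vector libraries. The ratio of S1PR1 to S1PR2 was 1.12, 0.803 and 0.946 with vector, 0.30, 0.471 and 0.424 with S136X, and 0.305, 0.529 and 0.433 with R58Q. Every mutant library was below every vector library for this pair of receptors of 1 lipid. The ratio of CXCR5 to CXCR4 was 2.15, 2.21 and 2.96 with vector, 8.56, 4.06 and 7.82 with S136X, and 7.11, 3.54 and 7.42 with R58Q.

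In both mutants the library numbered 2 was the highest of its group for CXCR4, S1PR1, P2RY8, GNA13, RGS1 and KLF2 and the lowest for CXCR5 and CCR7. For KLF2 these libraries had 7.96 CPM with S136X and 6.34 CPM with R58Q, against 3.86 to 5.01 CPM in the other mutant libraries. In the vector group the library numbered 2 was the highest for S1PR1 and GNA13 and the lowest for CXCR5.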
